A study of Mus musculus with 8 samples.

Results

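Granulocytes carry antimicrobial proteins in cytoplasmic granules, and the transcripts of 10 such proteins were followed in whole mouse embryos that lacked Runx1. The genes were Mpo, Elane, Prtn3, Ctsg, Lyz1, Lyz2, Ltf, Camp, Ngp and Prg2. They were represented by 12 of the 45037 probe sets tested, and by 10 of the 18193 genes that the array names singly. A probe set is the group of short oligonucleotides that reports on a transcript. Each gene had 1 probe set except Lyz1, which had 3, and no probe set naming several genes included a member.

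There were 4 groups with 2 arrays each, namely Runx1 knockout and wild-type embryos at embryonic day 12 (E12), and Runx1 knockout and wild-type embryos at embryonic day 8.5 (E8.5). All embryos came from a colony on a BalbC background. The study's methods give the RNA as that of the embryo proper, a term for the embryo apart from its extraembryonic tissues. The knockout affects the whole embryo and not a single tissue. Replicates are described as separate embryo propers, and the sources used here do not say whether several were pooled for an array. Values are log2 of the Robust Multi-array Analysis (RMA) intensity, in which an increase of 1 is a doubling of signal.

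Granule proteins are made in a fixed order as granulocytes mature. Myeloperoxidase and the serine proteases are made first, at the promyelocyte stage, and are packed in primary (azurophil) granules. Lactoferrin and the cathelicidin family are made later and enter secondary (specific) granules, whereas the major basic protein encoded by Prg2 is the core of eosinophil granules. Lysozyme cuts bacterial cell walls and is found in granulocytes, monocytes and macrophages, with Lyz2 the myeloid form and Lyz1 the form of intestinal Paneth cells. RUNX1 binds DNA and is required for the definitive wave of blood cells, and together with PU.1 and C/EBP factors it acts on myeloid genes. RNA from whole embryos does not separate fewer cells of a type from less RNA per cell, which cannot be told apart in any value below.

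The sequences just upstream of the members are shown because Runx1 is the deleted factor and because 2 pairs of members are neighbours in the genome. In the RefSeq gene order (assembly GRCm38.p6) there are 0 genes between Prtn3 and Elane and 0 between Lyz2 and Lyz1, both pairs on chromosome 10. The 250 bases before the annotated start were available for 9 members, and Prg2 was not among them. Capitals mark the RUNX core hexamer TGTGGT, which on the opposite strand reads ACCACA, and the PU.1 core hexamer GAGGAA, which on the opposite strand reads TTCCTC. The windows are chr11:87793534-87793783 (+ strand) for Mpo, chr10:79879417-79879666 (+ strand) for Prtn3, chr10:79886062-79886311 (+ strand) for Elane, chr10:117292869-117293118 (- strand) for Lyz1 and chr10:117282273-117282522 (- strand) for Lyz2, in GRCm38.p6, and each is written 5′ to 3′ along its gene.
Mpo: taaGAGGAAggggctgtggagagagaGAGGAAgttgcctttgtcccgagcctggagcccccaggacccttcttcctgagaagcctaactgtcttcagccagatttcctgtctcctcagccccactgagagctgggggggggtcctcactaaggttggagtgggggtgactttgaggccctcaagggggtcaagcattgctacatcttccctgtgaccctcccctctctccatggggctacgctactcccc
Prtn3: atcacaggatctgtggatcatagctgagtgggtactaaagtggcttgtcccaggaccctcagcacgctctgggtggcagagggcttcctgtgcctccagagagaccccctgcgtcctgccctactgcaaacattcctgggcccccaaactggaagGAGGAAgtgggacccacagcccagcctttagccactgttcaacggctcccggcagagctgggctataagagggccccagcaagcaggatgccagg
Elane: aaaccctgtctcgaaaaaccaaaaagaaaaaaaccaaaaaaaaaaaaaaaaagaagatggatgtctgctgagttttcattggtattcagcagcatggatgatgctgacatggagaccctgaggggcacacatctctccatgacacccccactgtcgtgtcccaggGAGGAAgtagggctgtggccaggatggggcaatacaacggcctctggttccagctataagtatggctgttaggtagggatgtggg
Lyz1: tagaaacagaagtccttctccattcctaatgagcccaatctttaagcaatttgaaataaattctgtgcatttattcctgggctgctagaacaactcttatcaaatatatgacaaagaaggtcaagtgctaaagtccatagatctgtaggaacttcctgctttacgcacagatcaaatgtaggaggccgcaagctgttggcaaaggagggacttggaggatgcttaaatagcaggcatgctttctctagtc
Lyz2: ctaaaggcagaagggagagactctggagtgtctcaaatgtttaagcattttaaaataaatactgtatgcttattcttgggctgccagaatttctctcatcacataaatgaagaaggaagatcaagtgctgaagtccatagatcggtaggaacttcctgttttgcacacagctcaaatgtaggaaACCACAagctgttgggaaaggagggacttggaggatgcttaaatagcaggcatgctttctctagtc
Both strands were searched. TGTGGT occurred in 2 of the 9 windows, those of Lyz2 (bases -66 to -61 from the start) and Ctsg (-79 to -74), against 14.0% of all 32851 RefSeq promoter windows of this length. TGCGGT, a variant of the core, occurred in 0 of 9, against 5.10% of all. GAGGAA occurred in 5 of 9, namely Mpo, Elane, Prtn3, Ctsg and Ltf, against 23.3% of all. The C/EBP motif TTGCNNAA occurred in Lyz1, Ltf and Ngp, against 9.56% of all. The windows of Prtn3 and Elane carry the PU.1 hexamer at -95 to -90 and -85 to -80. Lyz1 and Lyz2 were identical at 205 of 260 aligned columns (78.8%), but the RUNX hexamer was found in Lyz2 only among these 5 windows. A match is a description of letters and not of binding.

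The targeted gene and the purity of the samples were looked at first. Runx1 itself had 6 probe sets, and past an absolute t of 3 none was below wild type at either stage. At E8.5 the probe set 1422864_at was higher in knockout, at 6.09 and 6.33, against 5.26 and 5.09 in wild type (difference 1.03, limma adjusted p = 0.843). The part of Runx1 that is deleted is not given in the sources used here, so these probe sets do not check the genotype labels. Lists of embryo markers were read as a check of the embryo description. The median of 6 heart markers stood at array percentiles 87.1 to 88.5 in E12 knockout and 89.0 to 92.1 in E12 wild type. At E8.5 it stood at 77.7 to 88.1 in knockout and 60.8 to 80.8 in wild type. That of 6 neural markers was 78.1 to 78.3 in E12 knockout and 76.6 to 79.4 in E12 wild type. At E8.5 it was lower, at 42.7 to 66.2 in knockout and 45.4 to 46.8 in wild type. That of 6 somite and limb markers was 72.7 to 73.5 in E12 knockout and 68.9 to 78.2 in E12 wild type. At E8.5 it was 43.4 to 47.4 in knockout and 21.8 to 49.8 in wild type. Markers of tissues outside the embryo proper were also present, above all at E8.5. The median of 10 markers shared by yolk sac endoderm and fetal liver stood at percentiles 83.5 to 87.9 in E12 knockout and 81.8 to 89.1 in E12 wild type, and at 95.4 to 98.4 in E8.5 knockout and 91.1 to 97.5 in E8.5 wild type. That of 8 maternal decidua markers stood at 48.7 to 61.6 in E8.5 knockout and 49.4 to 61.8 in E8.5 wild type. The list of 9 epithelial markers, those of gut and glandular epithelium, is not particular to tissues outside the embryo. Its median stood at 87.5 to 89.6 in E8.5 knockout and 83.6 to 90.7 in E8.5 wild type. The high yolk sac endoderm markers in all 4 E8.5 arrays go against the description as embryo proper at that stage. The replicates correlated at 0.992 and 0.965 in E12 knockout and wild type, and at 0.983 and 0.927 in E8.5 knockout and wild type. Of the 8 arrays, 1 E8.5 wild-type array, replicate 1, stood apart. Its summed intensity over 6 trophoblast markers was 22306, against 641.5 in replicate 2 and 656 to 1081 in the E8.5 knockout. Of 17 macrophage markers, 7 were higher in that array than in replicate 2, with a median gap of -0.07. Their summed intensity was nevertheless 6304 in that array, against 643.1 in replicate 2 and 544.6 to 592.4 in the E8.5 knockout. Lgals3 had the highest E8.5 wild-type mean of these markers, 9.08, and the largest SE, 1.85. The sum may therefore rest largely on that gene and does not describe the list. At E12, the trophoblast markers summed to 224.5 to 235.9 in knockout and 227.2 to 245.4 in wild type.

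At E12, the transcripts of Mpo, of 2 Lyz1 probe sets, of Lyz2, of Prg2 and of Prtn3 were lower in knockout embryos than in wild-type embryos, by 1.86-fold to 10.6-fold. Those of Elane, Ctsg, Camp and the third Lyz1 probe set overlapped between genotypes. Of the 12 probe sets, 10 had a difference below 0, against 47.5% of all probe sets, and 2 above 0, against 52.5% of all. Both knockout arrays lay below both wild-type arrays for 8 of 12, against 15.8% of all, and above both for 0, against 12.6% of all. On the lower side 6 of 12 passed an absolute moderated t of 3, against 0.473% of all. That threshold is the one stated in the study's methods and carries no correction for the number of tests. After Benjamini-Hochberg adjustment over all probe sets in limma, 1 of 12 was lower at adjusted p below 0.05, against 0.0133% of all. No member probe set passed either threshold on the higher side, against 0.182% of all for the t threshold. At an unadjusted limma p below 0.05 there were 7 of 12, against 1.58% of all. The median difference of the 12 was -0.77, against 0.011 over all probe sets.

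**Figure D1:**
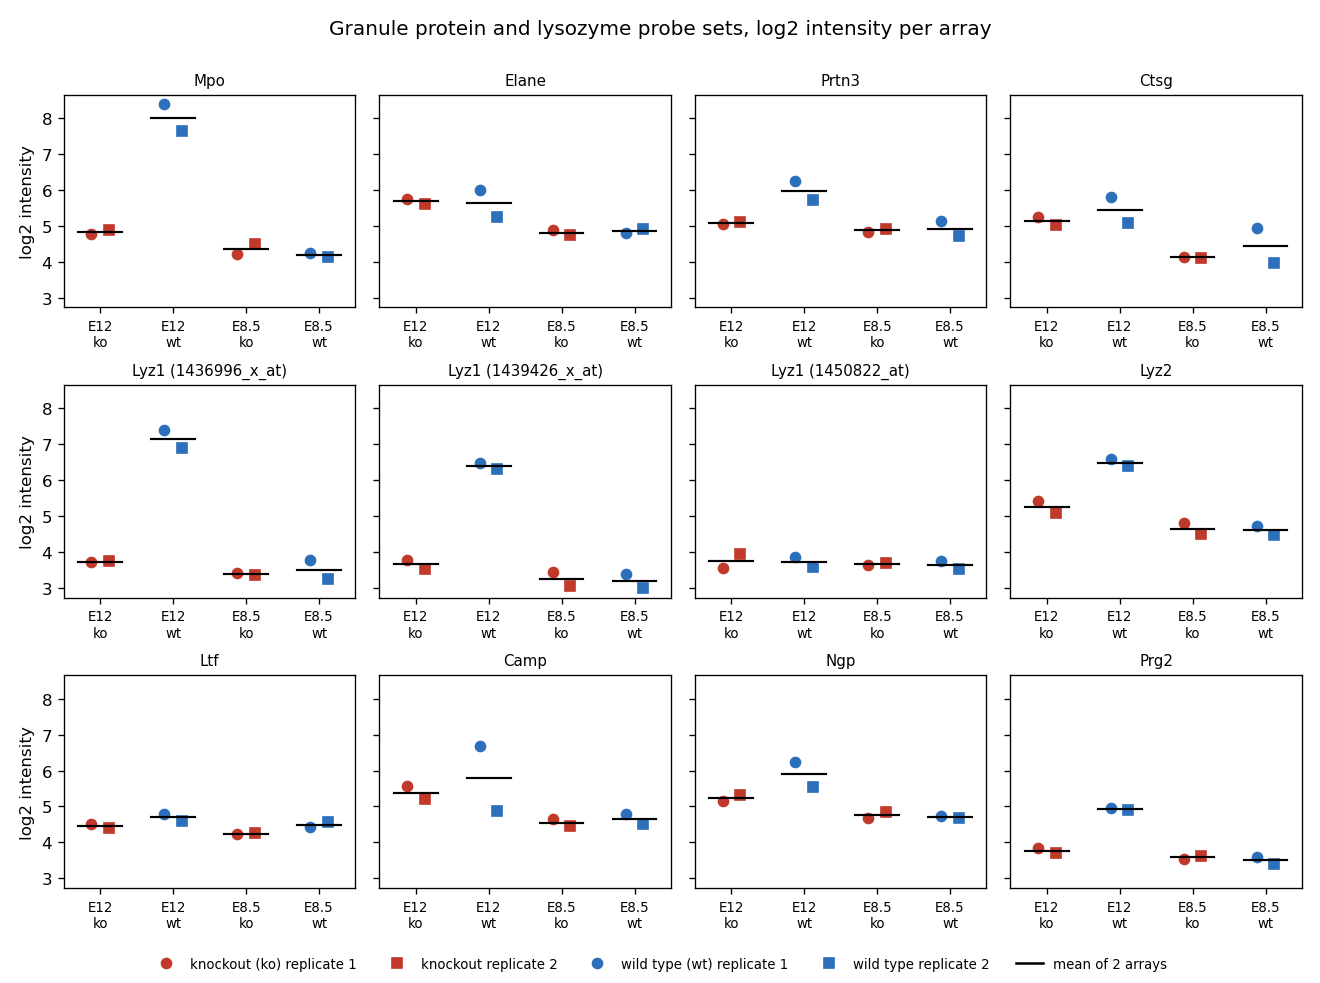
Log2 RMA intensity (vertical axis) of the 12 probe sets in E12 knockout (E12 ko), E12 wild type (E12 wt), E8.5 knockout and E8.5 wild type embryos, with 1 point per array and a bar at the mean of 2 arrays. Mpo lies at 4.78 and 4.88 in the E12 knockout arrays against 8.38 and 7.63 for the E12 wild type, and the third Lyz1 probe set lies between 3.54 and 3.95 in all 8 arrays.

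Mpo encodes myeloperoxidase, the haem enzyme that makes hypochlorous acid and the main protein of primary granules. It read 4.78 and 4.88 in E12 knockout embryos, against 8.38 and 7.63 in E12 wild-type embryos. Ranked among all probe sets of an array, it stood at percentiles 39.0 to 41.9 in the E12 knockout, against 84.8 to 92.2 in the E12 wild type. These ranks place a probe set on the array and do not compare amounts of different transcripts. The difference was -3.18 (SE 0.26, 95% interval -3.80 to -2.55), a 9.05-fold lower level, at a limma adjusted p of 0.0553. Thus it missed the adjusted threshold in this fit, and leaving out single arrays gave differences of -3.55 to -2.80.

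The other primary granule members are serine proteases, and their differences ran between -0.89 and 0.062. Prtn3, proteinase 3, read 5.05 and 5.11 in E12 knockout embryos, against 6.24 and 5.71 in wild type, so that the genotypes did not overlap. Its difference was -0.89 (SE 0.23, limma adjusted p of 1), and it was -0.63 without wild type replicate 1 and -1.16 without wild type replicate 2. Elane, the neutrophil elastase gene next to Prtn3, read 5.75 and 5.62 in knockout, against 6.01 and 5.24 in wild type. Elane and Prtn3 both carry the PU.1 hexamer in the windows shown. Both Elane knockout arrays lay between the wild-type arrays, and the difference was 0.062 with a 95% interval of -0.56 to 0.68. Ctsg, cathepsin G, read 5.24 and 5.02 in knockout, against 5.81 and 5.09 in wild type, with a difference of -0.32 (95% interval -1.20 to 0.57). For these 2 genes the sign depended on single arrays, because Elane turned to -0.32 without wild type replicate 2 and was 0.45 without wild type replicate 1, and Ctsg turned to 0.044 without wild type replicate 1.

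The lysozymes gave the largest and the smallest differences of the set, depending on the probe set. The Lyz1 probe set 1436996_x_at read 3.72 and 3.74 in E12 knockout embryos, against 7.39 and 6.89 in E12 wild type. It fell by 3.41 on the log2 scale (SE 0.25), which is 10.6-fold, and was the member called over all probe sets (limma adjusted p = 0.0335). The second, 1439426_x_at, read 3.79 and 3.54 in knockout, against 6.47 and 6.30 in wild type, a difference of -2.72 (SE 0.22, limma adjusted p = 0.0553). The third, 1450822_at, read 3.57 and 3.95 in knockout, against 3.86 and 3.58 in wild type, and its difference was 0.039 (95% interval -0.44 to 0.52). It stayed between percentiles 7.9 and 15.9 in all 8 arrays. The suffix x_at marks probe sets whose oligonucleotides can match other transcripts, and Lyz1 and Lyz2 are close copies, so the first 2 probe sets cannot be assigned to Lyz1 alone. Lyz2, by its own probe set, read 5.43 and 5.10 in knockout, against 6.59 and 6.39 in wild type. It was lower by 2.35-fold (difference -1.23, SE 0.20, limma adjusted p = 0.849) without overlap between genotypes.

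The call of Lyz1 did not survive the loss of most single arrays. Without E12 knockout replicate 1 or 2, its limma adjusted p was 0.844 and 0.833. It was 0.398 and 0.227 without E12 wild type replicate 1 or 2, and 0.214 without either E8.5 knockout array. Its difference under these changes stayed between -3.65 and -3.16. Without either E8.5 wild-type array, which belong to no side of this comparison but enter the shared estimate of the spread, 3 member probe sets were called, those of Mpo (adjusted p = 0.0339) and the first 2 of Lyz1.

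None of the secondary granule members passed an absolute t of 3 at E12. Ngp, neutrophilic granule protein, a relative of the cathelicidins, read 5.16 and 5.32 in E12 knockout embryos, against 6.24 and 5.54 in wild type. Its difference was -0.65 (SE 0.25, limma adjusted p of 1), without overlap, and was -0.30 without wild type replicate 1. Camp, the cathelicidin precursor of an antimicrobial peptide, read 5.57 and 5.20 in knockout, against 6.69 and 4.88 in wild type. The wild-type arrays of Camp differed from each other by 1.81, the largest such gap among the 12 probe sets at E12, and the genotype difference was 0.50 without wild type replicate 1 and -1.31 without wild type replicate 2. Ltf, lactoferrin, an iron-binding protein, read 4.51 and 4.41 in knockout, against 4.80 and 4.59 in wild type, and differed by -0.23 (95% interval -0.61 to 0.14). Its E12 wild-type arrays stood at percentiles 35.3 to 39.6 of their arrays, so that its probe set was below the median probe set in every E12 array. No detection calls were available, and a transcript at such a level may not have been measured above background.

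Prg2, the eosinophil major basic protein, was dim and yet separated. It read 3.85 and 3.70 in E12 knockout embryos, against 4.95 and 4.90 in wild type, at percentiles 9.8 to 13.8 in knockout and 43.6 to 43.7 in wild type. The difference was -1.15 (SE 0.16, limma adjusted p = 0.539), a 2.22-fold lower level. It ranged from -1.23 to -1.08 when single arrays were left out.

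**Figure D2:**
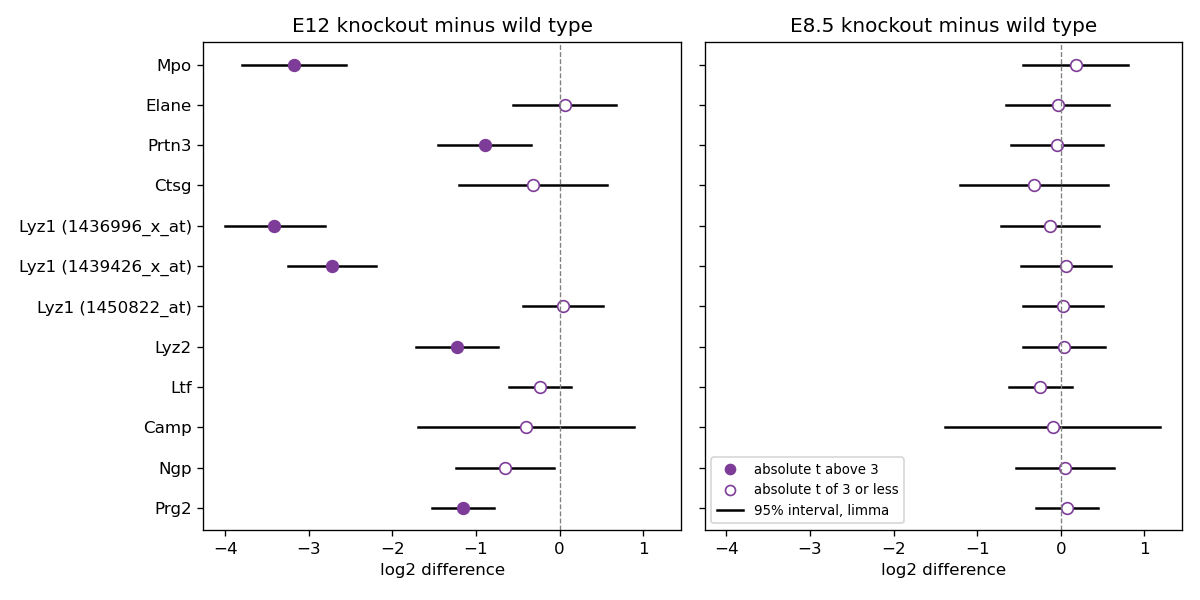
Log2 difference, knockout minus wild type (horizontal axis), for each of the 12 probe sets at E12 (left) and E8.5 (right), with the limma 95% interval as a line and filled points past an absolute t of 3. At E12 6 points are filled, from -0.89 for Prtn3 to -3.41 for the first Lyz1 probe set, and at E8.5 none is filled.

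A feature shared by all members was that E12 wild type replicate 1 read higher than replicate 2. This was so for 12 of 12 probe sets, with a median gap of 0.51, whereas 54.1% of all probe sets were higher in that array (median gap 0.038). The same array was higher for 12 of 17 macrophage markers and 6 of 9 platelet and megakaryocyte markers, and for 2 of 9 red cell markers. It was also higher for 8 of 10 markers of fetal liver and yolk sac endoderm, with a median gap of 0.32. The gap was 0.75 for Mpo, 0.77 for Elane and 0.048 for Prg2. In the E12 knockout, 7 of 12 were higher in replicate 1, with a median gap of 0.11.

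At E8.5, no member passed a test between the genotypes. Of the 12 probe sets, 6 were higher (46.9% of all) and 6 lower (53.1% of all), and the median difference was -0.004, against -0.018 over all probe sets. None passed an absolute t of 3 (against 1.18% lower and 0.881% higher of all probe sets), and none had an unadjusted limma p below 0.05 (against 4.73% of all). After adjustment none was called, but 0 of all 45037 probe sets were called at E8.5 in either direction. Both knockout arrays lay below both wild-type arrays for 1 probe set, that of Ltf, against 16.1% of all, and above both for 0, against 13.2% of all. Ltf read 4.24 and 4.25 in knockout, against 4.42 and 4.57 in wild type (difference -0.25, 95% interval -0.62 to 0.13). The members past an absolute t of 3 at E12 overlapped between genotypes at E8.5. Mpo read 4.23 and 4.49 in E8.5 knockout embryos, against 4.24 and 4.13 in wild type, and its difference was 0.18 with a 95% interval of -0.45 to 0.80. The first Lyz1 probe set read 3.41 and 3.36 in knockout, against 3.79 and 3.24 in wild type (difference -0.13, 95% interval -0.72 to 0.46). Prg2 and Lyz2 likewise overlapped. Prg2 read 3.54 and 3.63 in knockout, against 3.60 and 3.41 in wild type, and Lyz2 read 4.80 and 4.50 in knockout, against 4.74 and 4.49 in wild type. The 95% intervals of these 4 genes at E8.5 had lower bounds of -0.45 for Mpo, -0.72 for Lyz1, -0.45 for Lyz2 and -0.30 for Prg2. All lay above their E12 differences, for which the genes were picked. However, the E8.5 wild-type means were only 4.18 for Mpo, 3.52 for Lyz1, 4.61 for Lyz2 and 3.51 for Prg2. A fall of the E12 size could hardly be read from such levels, so the bounds do not show that it was absent. Without E8.5 wild type replicate 1, the array that carried the trophoblast markers, the signs of Prtn3 (0.16), Ctsg (0.17), the first Lyz1 probe set (0.14) and Camp (0.046) turned positive, and no probe set passed a threshold.

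Elane, Prtn3, Ctsg, Camp and Ngp were also within the spread of the arrays at E8.5. Prtn3 read 4.83 and 4.92 in E8.5 knockout, against 5.13 and 4.71 in wild type. Elane read 4.88 and 4.75 in knockout, against 4.80 and 4.90 in wild type. In Ctsg the E8.5 wild-type arrays disagreed, since it read 4.14 and 4.11 in knockout, against 4.94 and 3.96 in wild type. Camp read 4.64 and 4.46 in knockout, against 4.79 and 4.50 in wild type, and Ngp read 4.68 and 4.84 in knockout, against 4.74 and 4.68 in wild type. Of the 12 probe sets, 0 were above the median probe set of either E8.5 knockout array, and 1 and 0 were above it in the E8.5 wild-type arrays. At E12, 4 and 3 were above the array median in the knockout, against 9 and 7 in the wild type.

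The comparison of stages asked how each transcript changed between E8.5 and E12 with and without Runx1. In wild-type embryos, 7 of 12 probe sets were higher at E12 than at E8.5 at a limma adjusted p below 0.05, against 12.1% of all probe sets, and both E12 arrays lay above both E8.5 arrays for 11 of 12, against 30.7% of all. In knockout embryos, 0 of 12 were called, against 11.6% of all, and 1, that of Elane, passed an absolute t of 3, against 14.0% of all. At an unadjusted limma p below 0.05 there were 3 in knockout, those of Elane, Ctsg and Lyz2, against 38.9% of all. The median stage difference was 0.43 in knockout (0.029 over all probe sets) and 1.16 in wild type (-0.007 over all). Markers of other tissues differed between the stages too. The median stage difference of the yolk sac endoderm and fetal liver markers was -2.51 in knockout (8 of 10 called lower) and -1.71 in wild type (4 of 10), and that of the epithelial markers was -2.24 in knockout and -2.86 in wild type. Trophoblast markers had medians of -0.59 in knockout and -2.93 in wild type. The part of tissue make-up in the stage differences of the members was not tested.

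Mpo rose by 3.82 in wild type (SE 0.26, 14.2-fold, limma adjusted p = 0.00092), whereas it differed by 0.47 in knockout (SE 0.26, limma adjusted p = 0.236). The first 2 Lyz1 probe sets rose by 3.62 and 3.19 in wild type (limma adjusted p = 0.00092 and 0.000956) and differed by 0.34 and 0.40 in knockout. Lyz2 and Prg2 rose by 1.88 and 1.42 in wild type (limma adjusted p = 0.00252 and 0.00255), and in knockout they differed by 0.61 and 0.19. A protease and a secondary granule gene were called as well. Prtn3 and Ngp rose by 1.06 and 1.18 in wild type (limma adjusted p = 0.0186 and 0.0156). Their stage differences in knockout were 0.21 and 0.48. Without E12 wild type replicate 1 the call of Prtn3 was lost (0.79, limma adjusted p = 0.0824).

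Elane had its larger stage difference in the knockout. It differed by 0.87 in knockout (95% interval 0.25 to 1.49, limma adjusted p = 0.0515) and by 0.77 in wild type (0.15 to 1.39, limma adjusted p = 0.0693). The difference of these differences, knockout minus wild type, was 0.098 with a 95% interval of -0.78 to 0.97. In knockout embryos all 12 stage differences were above 0 as deposited (52.1% of all probe sets), but 10 of 12 after quantile normalization of the 8 arrays and 9 of 12 after centring each array on its median, which moved the median of all probe sets to -0.18.

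**Figure D3:**
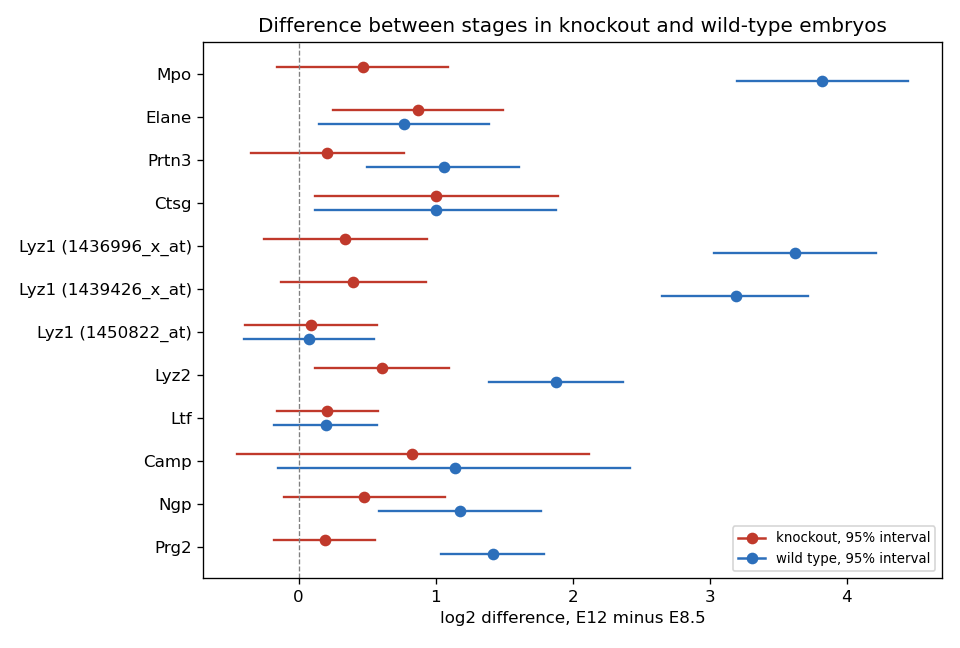
Log2 difference, E12 minus E8.5 (horizontal axis), of the 12 probe sets in knockout (red, upper point of each pair) and wild type (blue, lower point), each with its limma 95% interval. The knockout points lie between 0.089 and 1.00, and the wild-type points of Mpo and of the first 2 Lyz1 probe sets lie above 3.

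Whether the knockout difference changed with stage was tested as an interaction. The E12 difference minus the E8.5 difference was -3.35 for Mpo (SE 0.37, limma adjusted p = 0.387), -3.28 and -2.78 for the first 2 Lyz1 probe sets, -1.27 for Lyz2 and -1.23 for Prg2. These 5 probe sets passed an absolute t of 3 on the lower side, against 0.426% of all, none passed it on the higher side (0.262% of all), and none of 12 was called after adjustment, against 0.00444% of all. At an unadjusted limma p below 0.05 there were 6 of 12, against 1.87% of all. For Prtn3 the value was -0.85 (SE 0.33) and for Ngp -0.70 (SE 0.35). At E8.5 at most 1 of the 12 probe sets was above the median of any array. The first Lyz1 probe set lay at percentiles 3.1 to 15.4 there, and Prg2 at 5.7 to 10.6. A lower level in knockout could hardly be read from such values, so the interaction largely repeats the E12 differences.

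Granule and neutrophil genes beyond the members were then followed, using 1 probe set per gene. Each count is set beside 47.5% of all probe sets below 0 and 0.473% past an absolute t of 3 on the lower side. The lists were chosen with earlier results of these data known. Each gene was read by its probe set with the highest mean over all 8 arrays, which can favour one that is high in a single group. The counts are therefore a description and not a test. Of 7 other primary granule and granule-processing genes, 6 were lower in E12 knockout and 2 passed an absolute t of 3, with a median of -0.67 against 0.011 over all probe sets. These were Ctsc (-1.54, limma adjusted p = 0.352), the cathepsin C that activates granule serine proteases, and Man2b1 (-0.67), a lysosomal mannosidase. Both were brighter at E8.5, where the members were dim. Ctsc had means of 12.58 in E8.5 knockout and 12.23 in E8.5 wild type, against 7.64 and 9.18 at E12. Man2b1 had 8.58 and 9.04 at E8.5, against 7.30 and 7.96 at E12. In wild type, 5 of these 7 genes were lower at E12 than at E8.5 (50.5% of all probe sets), whereas no member was. The cells that gave these signals were not tested. Of 16 other secondary granule and neutrophil effector genes, 13 were lower, 3 passed that t and the median was -0.15. The 3 were S100a8 (-1.74), a calcium-binding subunit of calprotectin, Itgb2 (-1.06), the leukocyte beta-2 integrin chain, and Olfm4 (-0.58), a specific granule glycoprotein. Among those that did not pass it, S100a9, the other calprotectin subunit, was at -0.51, Hp, haptoglobin, at -0.49, Lcn2, lipocalin 2, at -0.23 and Mmp8, neutrophil collagenase, at -0.09. The arrays of the genotypes overlapped for Mmp8 and did not for the other 3. The median gene of that list stood at array percentiles 14.5 to 14.7 in E12 knockout, against 26.5 to 32.9 in wild type.

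Genes of the oxidative burst and of myeloid commitment were counted in the same way. Of 5 genes of the NADPH oxidase, the complex that makes superoxide, 4 were lower in E12 knockout and 3 passed an absolute t of 3, namely Ncf1 (-2.14), Cyba (-1.01) and Rac2 (-0.63), with none called after adjustment. Cyba, too, was brighter at E8.5 (9.67 in knockout and 9.32 in wild type) than at E12 (7.10 and 8.12). Of 11 regulators and growth factor receptors, 10 were lower and 1, Myb (-1.37), a factor of immature blood cells, passed that t. Spi1 (-0.21), which encodes PU.1, and Cebpa (-0.33) did not pass it. Of 7 granulocyte-monocyte progenitor markers, 6 were lower and 1 passed, F13a1 (-1.46). Of 6 other eosinophil granule genes, 4 were lower and 0 passed, with Epx, eosinophil peroxidase, at -0.40. Of 11 mast cell and basophil genes, 6 were lower, 5 were higher and 0 passed. The counts of the eosinophil and mast cell lists lie near the shares over all probe sets.

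Lysozyme and the oxidase genes are also expressed by macrophages, and macrophage markers were lower beside the members. Of 17 macrophage markers, 15 were lower in E12 knockout, 6 passed an absolute t of 3 and the median was -0.79. Ctss, cathepsin S, was called (-3.29, limma adjusted p = 0.00537), and the others past that t included C1qc (-1.50) and C1qb (-1.12), chains of complement C1q, and Mpeg1 (-1.29), a perforin-like protein. The summed intensity of the 17 markers was 640.3 to 701.8 in E12 knockout, against 1420 to 1782 in wild type. All 9 platelet and megakaryocyte markers were lower too, 3 of them called. The part of macrophages in the values of Mpo and the lysozymes was not tested. Of 9 lymphocyte markers, 7 were lower, 0 passed on the lower side and 1, Rag1 (0.51), passed on the higher side. At E8.5, 10 of 17 macrophage markers were lower (53.1% of all probe sets). Mertk (-0.58) passed an absolute t of 3 on the lower side (1.18% of all). Csf1r did not pass it, at -1.65 at E8.5 and -1.55 at E12. Of 11 regulators and receptors, 8 were lower at E8.5 and Csf2ra (-0.73) passed it. Cd34 (1.37), a progenitor marker, passed it on the higher side (0.881% of all). No gene of these lists was called at E8.5, where 0 of all 45037 probe sets were called.

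**Figure D4:**
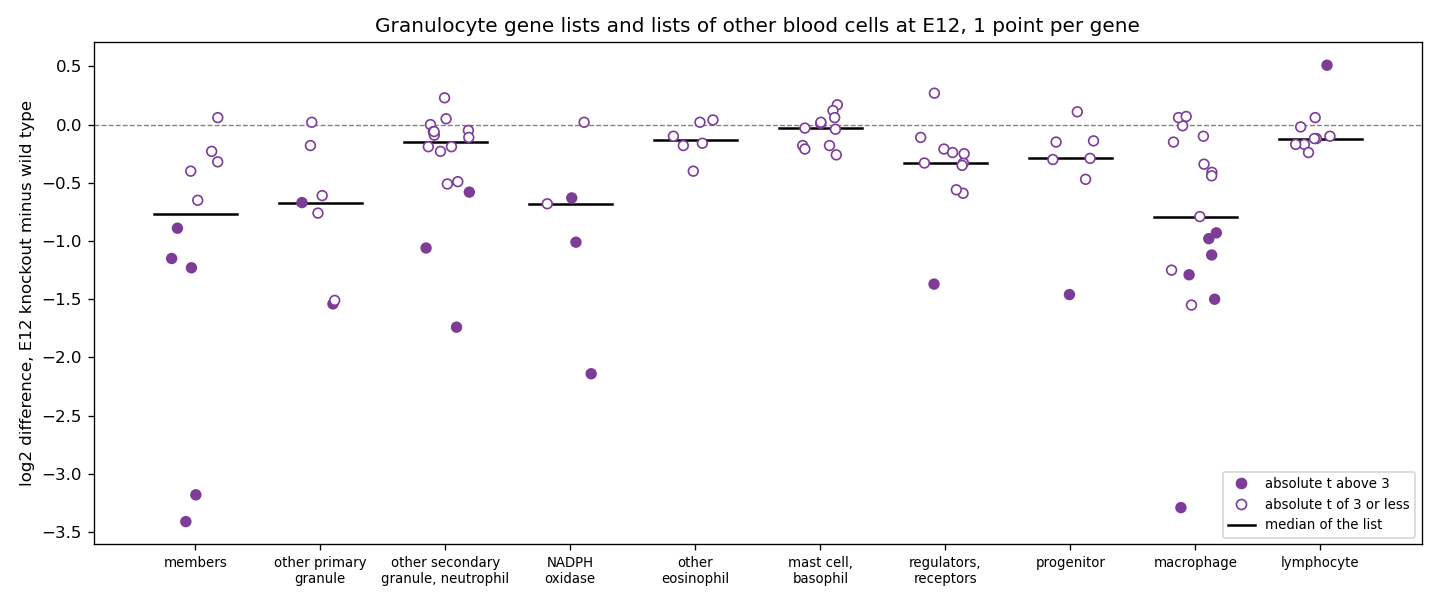
Log2 difference, E12 knockout minus wild type (vertical axis), with 1 point per gene for the 10 members and 9 other gene lists (horizontal axis), filled where the absolute t was above 3, and a bar at each list's median. The macrophage list has a median of -0.79, near that of the members, whereas the mast cell and basophil list has a median of -0.031.

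The genes whose 8 array values were most like those of a member were sought among 3488 probe sets with an SD of at least 1 over the arrays. For Mpo these were Lyz1 (Pearson r = 0.990), Ctss (0.988), Coro1a (0.984), the actin-binding coronin of leukocytes, Ncf1 (0.974) and Ppbp (0.973), a platelet chemokine precursor. For Lyz2 they were Mpeg1 (0.981), Lyz1 (0.976), Coro1a (0.963), Mpo (0.960) and Ctss (0.940). All of these had their highest group mean in the E12 wild type, so the values of r share the same 2 arrays and are given as a description.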

How the data were processed

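Total RNA of 8 embryo samples was hybridised to Affymetrix mouse genome arrays of 45101 probe sets after RNA amplification. The deposited values are RMA intensities on the linear scale, summarised per probe set by the authors. Whether both stages were normalized together is not stated, and the values carry no detection calls. Among the probe sets, 64 controls were left out. The platform annotation gave 34945 probe sets 1 gene symbol, 932 several and 9160 none. Log2 intensities of all 45037 others were fitted in 1 model of 4 groups (limma 3.58.1, R 4.3.3, lmFit and eBayes) with Benjamini-Hochberg adjustment over all, and called at 0.05. An absolute moderated t above 3, the threshold in the study's methods, was the second rule. No pseudocount or filter was used. The fit was tested on simulated data. P-values set a difference against a spread that was pooled over all 4 groups and moderated over the probe sets. The groups differed in spread, with an SD of replicate differences of 0.227 in E12 knockout and 0.833 in E8.5 wild type. With 2 arrays per group the precision is limited. Sequences are from RefSeq (GRCm38.p6), and 12 of 12 member probe sets kept their symbol there. The named genes include all probe sets of the 10 members. From the granulocyte, oxidase, progenitor, macrophage and lymphocyte lists, up to 4 genes per stage past an absolute t of 3 were named. S100a9, Hp, Lcn2, Mmp8, Spi1, Cebpa, Epx and Csf1r were named after their values were seen. The members and lists were chosen with earlier results of these data known. Other normalizations, a pseudocount of 16, a filter on dim probe sets, other variance models, a replicate block and fits without single arrays were tried.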

Additional observations from a re-analysis of the deposited data

How the results depend on the processing

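The number of member probe sets called at E12 (1 of 12) depended on the fit. Over all probe sets 6 were called. The members' count was 3 with array weights (8 over all) and 3 with an intensity trend and robust prior (9), and 0 with each stage fitted alone (2), with a filter on dim probe sets (2 of 22518), with quantile normalization (5) or with a replicate block (2). It ranged over 0 to 3 when arrays were left out singly. The filter kept 5 of the 12 probe sets (Mpo, Elane, Prtn3, Lyz2 and Ngp), which by its construction lowered the count past an absolute t of 3 to 3 at E12 (6 without the filter), to 2 for the interaction (5) and to 4 for both stage counts in wild type (7). The first Lyz1 probe set had limma adjusted p-values of 0.00219 to 0.844 over its alternatives, and Mpo 0.00881 to 1, with differences below 0 in all of them.

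For the interaction, the count called was 2 with the trend and robust prior (8 over all probe sets, against 2 in the fit reported) and 0 to 3 without single arrays (3 without E8.5 wild type replicate 2, where 718 were called over all), and the count past an absolute t of 3 was 5 to 8 (8 without E12 wild type replicate 2). Counts of stage differences called in knockout were 3 with array weights (19889 over all probe sets in either direction, against 11539 in the fit reported), 5 with each genotype fitted alone (19848), 1 with the trend and robust prior (11796), 2 with the replicate block (11265) and 0 to 2 without single arrays. Those past an absolute t of 3 were 3 with array weights, 5 with each genotype alone, 2 with a pseudocount of 16, 3 with the replicate block, 0 with centring, quantile normalization or the filter, and 0 to 3 without single arrays. The causes were not tested. Stage differences in knockout turned below 0 for Prtn3 with centring (-0.0021) and quantile normalization (-0.011), and for Prg2 with centring (-0.021).

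Leaving out single arrays turned the sign at E12 for Elane (-0.32 to 0.45), Ctsg (-0.68 to 0.044), the third Lyz1 probe set (-0.15 to 0.23) and Camp (-1.31 to 0.50). It also did so at E8.5 for Elane (-0.098 to 0.028), Prtn3 (-0.25 to 0.16), Ctsg (-0.81 to 0.17), Lyz1 (-0.41 to 0.14, -0.13 to 0.26 and -0.075 to 0.13 for its 3 probe sets), Lyz2 (-0.12 to 0.19), Camp (-0.24 to 0.046), Ngp (-0.031 to 0.13) and Prg2 (-0.019 to 0.17), and for the interaction of Elane (-0.29 to 0.48). Where this leaves 1 array in a group, its spread is assumed to equal that of the other groups. The labels share replicate numbers across groups but do not say that they pair samples. A control ratio of RNA quality, that of Gapdh, was higher in replicate 2 of every group. Deviations of same-numbered arrays correlated at 0.173 at E12 and 0.372 at E8.5, and at -0.121 to 0.076 between stages. With the replicate block, the first Lyz1 probe set had a limma adjusted p of 0.0551, and no member was called at E12. Among values for single probe sets, 330 of 353 under other alternatives and 344 of 384 without single arrays kept their direction and side of the threshold.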

Other observations

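Both 3 prime to 5 prime control ratios of the arrays overlapped between genotypes at E12. The log2 ratio of the Gapdh control probe sets was 2.38 and 2.65 in E12 knockout, against 2.20 and 2.57 in E12 wild type. At E8.5 it was 2.16 and 2.65 in knockout, against 2.25 and 2.56 in wild type, so replicate 2 was higher in all 4 groups. The actin ratio was 1.56 and 2.50 in E8.5 knockout, and 1.48 and 2.61 in E8.5 wild type. At E12 it was 1.69 and 1.45 in knockout, and 1.84 and 1.43 in wild type. The cause was not tested. In E8.5 wild type, 10 of 12 member probe sets read higher in replicate 1 than in replicate 2, with a median gap of 0.22, and in E8.5 knockout 6 of 12 did.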
